A study of Mus musculus with 21 samples.

Results

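Sorted lung epithelial cells from newborn mice (P0.5) were compared with those from fetuses shortly before birth (E18.5). The 4 libraries, 2 at P0.5 and 2 at E18.5, were chosen by the stage and cell type that their labels give, out of 21 libraries of sorted lung epithelial cells and fibroblasts, and every gene listed in the epithelial tables was compared. All mice were C57BL/6 and carried a Col1a2-GFP transgene, a green fluorescent reporter of collagen-producing mesenchymal cells, at both stages. At P0.5 the sorted cells were negative for the lineage markers CD31, CD45, CD146 and Ter119, negative for Col1a2-GFP and positive for Epcam. At E18.5 the label gives the same lineage and Epcam gates and does not name the GFP gate, although the general protocol does. Tags near the 3′ end of polyadenylated RNA were sequenced (3'SAGE-seq) after amplification of the RNA. The labels number the replicates without naming separate animals or litters. The spread behind the p-values was estimated over the epithelial libraries of all stages, not over the 4 compared libraries alone. The p-values therefore speak of the variation among replicate epithelial libraries only, and some or all of it could be technical.

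At birth the distal lung changes within minutes from a fluid-filled organ to one that exchanges gas. Alveolar type 2 cells store surfactant, a film of phosphatidylcholine and surfactant proteins, in lamellar bodies and release it to lower surface tension, while flat alveolar type 1 cells form the barrier across which gas diffuses. Late fetal glucocorticoid promotes this maturation, sodium channels and pumps draw fluid out of the airspaces, the tissue meets a higher oxygen tension, and the newborn turns from placental glucose to fat as fuel. In bulk samples, a smaller share of cells of one type and less RNA per cell cannot be told apart.

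The 4 libraries held 3077724 to 3725653 reads each and 15849 to 16603 genes above 0, and 3 reads, the limit that a count of 0 allows, were worth 0.848 to 1.10 value units. The tables list 23869 genes, of which 3968 were at 0 in all 4 libraries and 12143 passed the filter on low values. Values below are the deposited normalised values per library, and changes are log2 fold changes of P0.5 over E18.5 taken after adding 1 to each value, so the change of low genes is understated. Epcam was at 62.8 and 56.8 in P0.5 libraries, against 46.4 and 133 in E18.5 libraries, so the groups overlapped. Col1a2 was at 19.1 and 13.6 in P0.5 libraries, against 22.7 and 14.5 in E18.5 libraries, Ptprc at 0 and 0 in P0.5 libraries, against 0.324 and 1.26 in E18.5 libraries, and Pecam1 and Mcam were at or below 3.39 in every library. Summed levels of other cell types' markers, given as P0.5 against E18.5 libraries, were 553 and 509.9 against 482 and 444 for fibroblast genes, 147 and 139 against 207 and 216 for endothelial genes and 568 and 528 against 331 and 593 for macrophage genes. The macrophage sum includes Lyz2, which surfactant-storing alveolar cells also express, so it does not measure macrophages alone. Red cell genes summed to 4103 and 6181 in P0.5 libraries, against 799 and 2882 in E18.5 libraries. Postn and Twist1, defining genes of fibroblast subsets, Adgre1 of macrophages and Krt5, Krt14 and Trp63 of basal cells were at 0 in all 4 libraries.

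At P0.5, 1740 of 12143 genes (14.3%) differed from E18.5 by limma at an adjusted p under 0.05. Of all tested genes 879 (7.24%) were higher and 861 (7.09%) lower, and list counts near these shares are no trait of a list. The median absolute log2 change was 1.41 among the higher and 1.24 among the lower genes, and 672 and 571 of them changed by 1 or more. Over all tested genes the median change was -0.02, and in 58.4% of them both P0.5 libraries lay on the same side of both E18.5 libraries, above in 28.7% and below in 29.6%, so a lack of overlap is common here and is no call. Leaving out P0.5 replicate 1 or 2 left 646 and 589 called genes, and leaving out E18.5 replicate 1 or 2 left 923 and 1105. Of 54 gene lists with a call, 45 had a count of rises or falls that moved by over 1.5 times when 1 library was left out. Among genes given with a standard error or a p below, calls were lost for Ager, Aldoa, Etv5, Fbxo32 and Mfsd2a without P0.5 replicate 1, for Cpt1a, Foxj1, Nkx2-1 and Yap1 without P0.5 replicate 2, for Aldoa and Etv5 without E18.5 replicate 1, and for Ager, Aldoa, Etv5, Foxj1, Mfsd2a and Nkx2-1 without E18.5 replicate 2, besides C1qa, given with the leukocyte genes. Pcyt1a passed only without E18.5 replicate 1 among these 4 fits.

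**Figure D1:**
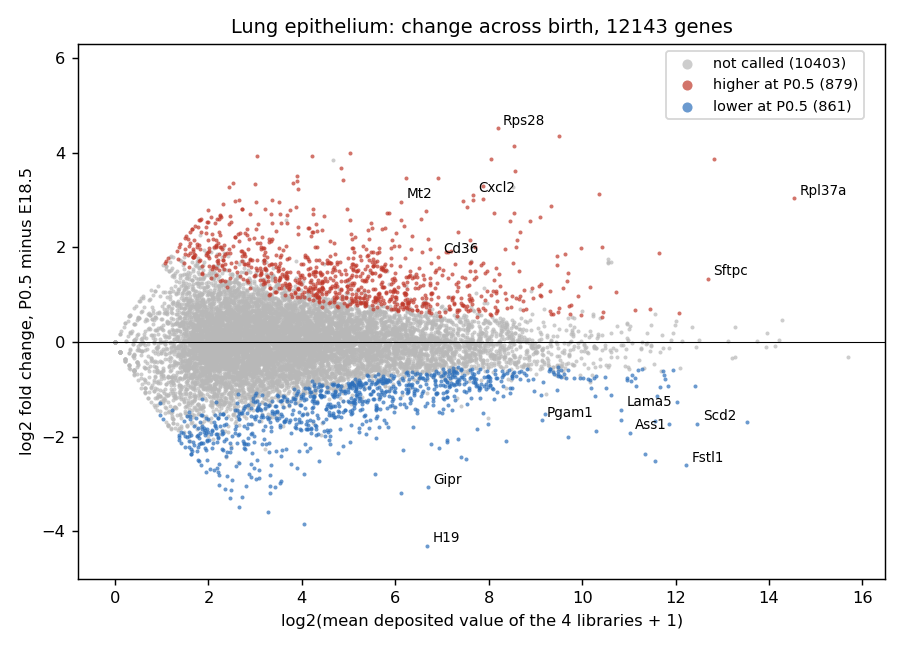
Each point is 1 of 12143 tested genes; the x axis is log2 of the mean deposited value of the 4 libraries plus 1, the y axis the log2 fold change of P0.5 over E18.5. Red points (879) passed the limma test as higher at P0.5, blue points (861) as lower and grey points did not pass; Rps28 (4.52) and H19 (-4.30) lie near the extremes.

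Among surfactant genes Sftpc, Sftpd and Sfta2 rose across birth, while Sftpb and Sftpa1 did not pass the test. Of 20 alveolar type 2 genes 8 rose and 0 fell, with a median log2 change of 0.48 (all genes -0.02). Sftpc (chromosome 14, 70520949 to 70524081, minus strand, GRCm38), which encodes the small hydrophobic surfactant protein C and is made by type 2 cells, was at 9059 and 9932 in P0.5 libraries, against 4059 and 3448 in E18.5 libraries. The groups were well separated, with a log2 change of 1.34 (SE 0.20) (limma adjusted p = 7.98e-04). Sftpd, a collectin that binds microbes in the airspace, was at 373 and 364 in P0.5 libraries, against 173 and 174 in E18.5 libraries, a change of 1.08 (SE 0.21) (limma adjusted p = 0.00398). Sftpb, the other hydrophobic surfactant protein, was at 3931 and 4550.1 in P0.5 libraries, against 3614 and 3776 in E18.5 libraries, a change of 0.20 (SE 0.19) (limma adjusted p = 0.557). Sftpa1, the second collectin, was at 269.9 and 292 in P0.5 libraries, against 206 and 202 in E18.5 libraries (limma adjusted p = 0.103). In the surfactant and lamellar body list as a whole, 3 of 19 genes rose and 0 fell, with 14 of 19 changes above 0 and a median of 0.46. The lipid transporter gene Abca3 (0.44) and the phosphate transporter gene Slc34a2 (0.50) lay above E18.5 in both P0.5 libraries without passing (limma adjusted p = 0.093 and 0.0529).

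The other type 2 genes that rose serve lipid uptake, host defence and the cell surface. The fatty acid transporter gene Cd36 (chromosome 5, 17781690 to 17888801, minus strand) was at 179.9 and 191 in P0.5 libraries, against 58.1 and 47.03 in E18.5 libraries, a change of 1.81 (SE 0.20) (limma adjusted p = 1.16e-04). The mucin gene Muc1 was at 271 and 244 in P0.5 libraries, against 96.7 and 105 in E18.5 libraries (1.35). The lysozyme genes Lyz1 (1.16) and Lyz2 (1.30) rose too, although near-identical copies can share tags. The ETS factor gene Etv5, which type 2 cells need in the mouse, rose by 0.77 (SE 0.19), and Sfta2, a secreted surfactant-associated protein, was at 5094 and 4822 in P0.5 libraries, against 891 and 2004 in E18.5 libraries. The type 2 count was 7 and 8 without P0.5 replicate 1 and 2 in turn, and 7 and 7 without E18.5 replicate 1 and 2 in turn. Sfta2 has a short transcript of 508 nucleotides and was lowest in E18.5 replicate 1, a pattern of short transcripts given with the ribosomal proteins. Of 26 genes of phosphatidylcholine synthesis and remodelling, 4 rose and 1 fell (median 0.09), and the rises were 2 and 2 without P0.5 replicate 1 and 2 in turn, and 4 and 2 without E18.5 replicate 1 and 2 in turn. The lipid phosphatase Lpin2 was at 58.8 and 71.3 in P0.5 libraries, against 19.5 and 27.1 in E18.5 libraries, and Mfsd2a, a transporter of lysophosphatidylcholine, rose by 1.21 (SE 0.25). The secreted phospholipase Pla2g1b (1.30) and the peroxiredoxin Prdx6 (0.71), which also acts on surfactant phospholipid, were the other genes that rose. Pla2g1b was the only list member with a known length of 600 nucleotides or fewer, and short transcripts are given with the ribosomal proteins. The choline transporter-like gene Slc44a2 fell (-0.81). Pcyt1a, the rate-limiting enzyme gene of the pathway (0.71, limma adjusted p = 0.103), and the remodelling acyltransferase gene Lpcat1 (0.05, adjusted p = 0.878) did not pass.

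**Figure D2:**
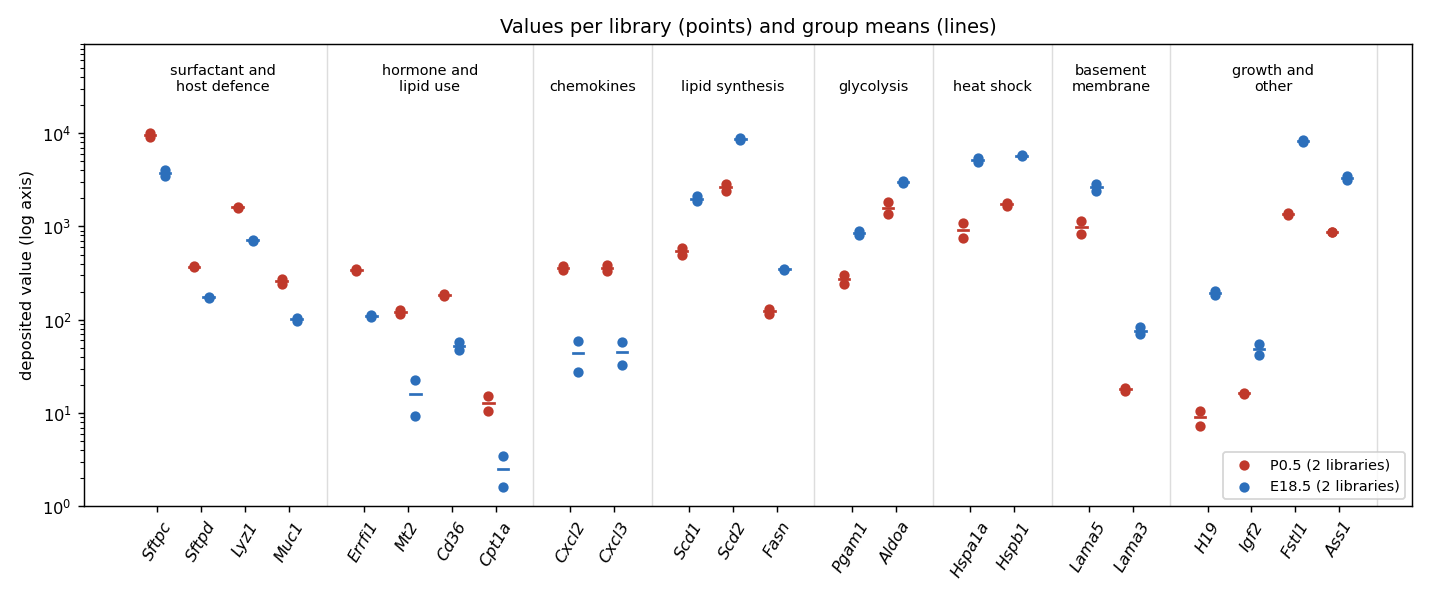
Deposited value per library (points, log axis) and group mean (lines) for genes chosen from those that passed the test, grouped by role. P0.5 is in red to the left of E18.5 in blue, 2 libraries each. Sftpc, Cd36 and Cxcl2 lie higher at P0.5, and Scd2, Pgam1, Hspa1a, Lama5, H19 and Fstl1 lie lower, with no overlap between the groups of any gene shown.

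Of 22 alveolar type 1 genes 1 rose (4.55%) and 2 fell (9.09%), near the shares over all genes tested (7.24% and 7.09%), with a median of -0.17. Ager, the receptor for advanced glycation end products, was at 292 and 369 in P0.5 libraries, against 656 and 692 in E18.5 libraries, a change of -1.04 (SE 0.24) (limma adjusted p = 0.0114). The chloride channel family gene Clic5 fell (-0.69), and the calcium-binding protein gene S100a6, with a transcript of 597.5 nucleotides, rose (2.98). The water channel gene Aqp5 was at 2719.9 and 2836 in P0.5 libraries, against 2743 and 3043 in E18.5 libraries and did not pass. In the airway lists, 6 of 10 ciliated cell genes fell and 1 rose (median -1.15). Foxj1, the master factor of motile cilia, was at 96.9 and 72.96 in P0.5 libraries, against 159.9 and 221 in E18.5 libraries (-1.15 (SE 0.24), limma adjusted p = 0.00719), and Cdhr3 (-1.73), Tekt1 (-1.08), Ccdc78 (-2.16), Dnah5 (-1.86) and Dnah9 (-1.14) fell. Tppp3, a tubulin-binding protein, passed in the other direction, at 3507 and 3429 in P0.5 libraries, against 2086 and 2179.6 in E18.5 libraries (0.70), a call lost whenever 1 of the 4 libraries was left out. Outside the list, the dynein heavy chain gene Dnah3 (-2.11) was among the 15 largest falls, as was Dnajb13 (50.3 and 54.01 in P0.5 libraries, against 256 and 317 in E18.5 libraries), which encodes a protein of the ciliary radial spoke. The ciliated count of falls was 1 and 1 without P0.5 replicate 1 and 2 in turn, and 5 and 0 without E18.5 replicate 1 and 2 in turn. In the club cell list 1 of 9 genes (11.1%) rose, the secretoglobin Scgb1a1 (236 and 205 in P0.5 libraries, against 54.5 and 61.5 in E18.5 libraries), and 1 (11.1%) fell, the claudin Cldn10 (-1.997). Scgb1a1 has a transcript of 476 nucleotides.

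General epithelial genes rose in 1 (5.56%) and fell in 2 (11.1%) of 18, against 7.24% and 7.09% of all genes tested. Keratin 19 (Krt19) was at 3775 and 3692 in P0.5 libraries, against 6971 and 7260.3 in E18.5 libraries, a change of -0.93 (SE 0.17). The splicing regulator Esrp1 rose (1.21) and its relative Esrp2 fell (-0.77). Of distal tip progenitor genes, 1 of 13 rose (Etv5) and 1 fell, each 7.69%. The gene that fell was the growth-promoting factor Mycn, at 0.367 and 1.697 in P0.5 libraries, against 9.08 and 18.6 in E18.5 libraries (-2.87 (SE 0.50), limma adjusted p = 0.00237), close to the limit of a count of 0 at P0.5. Sox9, which marks the growing tips, was at 95.8 and 96.4 in P0.5 libraries, against 73.6 and 87.1 in E18.5 libraries and did not pass. Among 30 transcription factor genes of lung epithelium 5 rose and 3 fell. Rises numbered 2 and 3 without P0.5 replicate 1 and 2 in turn, and 4 and 3 without E18.5 replicate 1 and 2 in turn, and falls 1 and 0 without P0.5 replicate 1 and 2 in turn, and 1 and 1 without E18.5 replicate 1 and 2 in turn. Cebpd (168 and 176 in P0.5 libraries, against 51.9 and 68.5 in E18.5 libraries), a hormone-responsive CCAAT-binding factor, and Tfcp2l1 (1.35), Irx1 (0.95) and the hypoxia-inducible factor gene Epas1 (15.8 and 15.3 in P0.5 libraries, against 8.76 and 5.997 in E18.5 libraries) rose with Etv5. Nkx2-1, the lineage factor of lung epithelium, fell to 933 and 885 in P0.5 libraries, against 1497 and 1589 in E18.5 libraries (-0.76 (SE 0.17), limma adjusted p = 0.00874), and Cebpb (-0.98) and the lipogenic factor Srebf1 (-1.06) fell too. Tight junction and adhesion genes rose in 1 (Cldn23, 1.04) and fell in 1 (Dsp, -0.57) of 20, each 5%, against 7.24% and 7.09% of all genes tested. Both calls were lost when only the 4 libraries were fitted, and Dsp also with edgeR, sum scaling and the replicate block.

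Glucocorticoid-responsive genes rose in 9 and fell in 1 of 23, with a median of 0.46. Errfi1 (chromosome 4, 150853919 to 150868892, plus strand), a feedback inhibitor of the EGF receptor, was at 334 and 353 in P0.5 libraries, against 107 and 113 in E18.5 libraries, with replicates close together and a change of 1.64 (SE 0.17) (limma adjusted p = 6.82e-05). The metallothionein gene Mt2, which binds zinc and answers to both metals and glucocorticoid, was at 127 and 116 in P0.5 libraries, against 9.41 and 22.7 in E18.5 libraries, a change of 2.96 (SE 0.34) (limma adjusted p = 1.57e-04). Its transcript is 511 nucleotides long, and E18.5 replicate 1 was the lowest library. The Krüppel-like factor Klf9 (1.27), Cebpd (1.51), the kinase Sgk1 (0.96) and the NF-κB inhibitor Nfkbia (0.92) rose as well. So did glutamine synthetase Glul (1.45), the pyruvate dehydrogenase kinase Pdk4 (2.66) and the lipase inhibitor Angptl4 (2.03). The Angptl4 call was lost with edgeR and DESeq2. The hormone reporter genes Fkbp5 (0.50), Tsc22d3 (0.17), Per1 (-0.44), Zbtb16 (0.36) and Dusp1 (0.46) did not pass, with limma adjusted p between 0.106 and 0.575. The cell cycle inhibitor Cdkn1c, an imprinted gene, fell (-1.20). The count of rises was 5 and 5 without P0.5 replicate 1 and 2 in turn, and 5 and 7 without E18.5 replicate 1 and 2 in turn.

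Mt2 was the member of this list with the largest rise on the log2 scale, and its promoter is shown for its metal response elements. It was searched on both strands for TGCACNC, which 12.6% of all 32851 RefSeq mouse promoter windows of this length hold, and for TGCGCNC, held by 15.4%. Capitals mark the 4 matches in the window of 250 bases before to 50 after the start (RefSeq, GRCm38.p6).
Mt2 (chr8:94172368-94172667, plus strand): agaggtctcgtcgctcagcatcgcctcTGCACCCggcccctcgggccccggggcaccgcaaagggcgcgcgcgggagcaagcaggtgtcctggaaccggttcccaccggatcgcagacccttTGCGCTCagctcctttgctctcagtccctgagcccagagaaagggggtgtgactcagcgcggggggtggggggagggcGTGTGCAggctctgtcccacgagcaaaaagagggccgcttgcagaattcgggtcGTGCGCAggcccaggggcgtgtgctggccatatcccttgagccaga
Of the 6 tested metallothionein and zinc genes, the zinc importer Slc39a10 (1.39) was the other that rose, a call lost with DESeq2 and the replicate block. The glucocorticoid response element, searched as GNACA and TGTNC with 3 bases between, present in 0.475% of all windows, was found in 1 of 7 rising members with a window, Sgk1, and in 1 of 10 not called. A match describes letters in the window and is not a site of binding.

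Of 27 fluid clearance genes 1 rose (3.70%) and 3 fell (11.1%), against 7.24% and 7.09% of all genes tested. These counts moved when 1 of the 4 libraries was left out. The epithelial sodium channel subunit gene Scnn1a was at 2398 and 2541 in P0.5 libraries, against 2385 and 2559 in E18.5 libraries, so the groups overlapped (limma adjusted p = 1), and Scnn1b (0.74) and Scnn1g (0.58) did not pass. Sgk1, the kinase that keeps this channel at the membrane, was at 19.1 and 20.1 in P0.5 libraries, against 10.1 and 9.15 in E18.5 libraries, a call lost with DESeq2 and whenever 1 of the 4 libraries was left out. Nedd4l, the ubiquitin ligase that removes the channel, fell to 123 and 108 in P0.5 libraries, against 250.4 and 225 in E18.5 libraries, a change of -1.03 (SE 0.18) (limma adjusted p = 0.00221) that passed under all 15 alternatives. The water channel gene Aqp4 (-2.13) and the potassium channel gene Kcnn4 (-1.94) fell, at low levels. In the circadian list 2 of 17 genes (11.8%) fell, the repressor genes Bhlhe40 (-0.85) and Bhlhe41 (-1.87), and 0 rose.

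Immediate early genes, which cells induce within minutes of growth factors, stretch or handling, rose in 7 and fell in 2 of 24 (median 0.36). Egr1 was at 254 and 266 in P0.5 libraries, against 131 and 147 in E18.5 libraries (0.90 (SE 0.16), limma adjusted p = 0.00268), and Fosb at 581 and 592 in P0.5 libraries, against 242 and 308 in E18.5 libraries (1.10). Klf4 (1.22), Jun (0.72), Nr4a2 (1.39), Btg2 (0.67) and Ier3 (0.74) rose, and Fos (0.37) did not pass. The mRNA decay factor Zfp36 (1430.3 and 2603 in P0.5 libraries, against 4009.5 and 4469 in E18.5 libraries) and Maff (-0.71) fell. The Ier3 call was lost with a pseudocount of 0.5, sum scaling, TMM scaling and the replicate block, and the Zfp36 call with DESeq2. The number that rose was 4 and 3 without P0.5 replicate 1 and 2 in turn, and 3 and 4 without E18.5 replicate 1 and 2 in turn. Of 18 YAP and mechanical response genes 5 rose and 0 fell, although the median was 0.13. The coactivator gene Yap1 was at 29.7 and 31.7 in P0.5 libraries, against 11.03 and 12.9 in E18.5 libraries (1.29 (SE 0.26)), its DNA-binding partner Tead1 rose by 0.95, and their targets Cyr61 (531 and 559 in P0.5 libraries, against 314 and 286 in E18.5 libraries, 0.86), Ankrd1 (2.04) and Amotl2 (0.78) rose too. This count was 2 and 0 without P0.5 replicate 1 and 2 in turn, and 2 and 5 without E18.5 replicate 1 and 2 in turn. Ctgf, another target, was at 517 and 451 in P0.5 libraries, against 391 and 413 in E18.5 libraries and did not pass.

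Several genes for fat use rose while several genes for fat synthesis fell. Of 30 fatty acid oxidation and PPAR genes, 8 rose and 1 fell (median 0.43). Carnitine palmitoyltransferase Cpt1a, which admits fatty acids to mitochondria, was at 10.6 and 15.3 in P0.5 libraries, against 1.62 and 3.47 in E18.5 libraries, low in all libraries but without overlap (2.01 (SE 0.38), limma adjusted p = 0.00398). Pdk4, which blocks the entry of pyruvate into the citric acid cycle, was at 8.45 and 5.94 in P0.5 libraries, against 0 and 0.631 in E18.5 libraries, which is at or below the limit of a count of 0 at E18.5. Cd36, Angptl4, the carnitine carrier Slc25a20 (1.43) and the thioesterases Acot1 (1.04) and Acot2 (0.85), near-identical copies whose tags may be shared, rose as well. The nuclear receptor gene Ppard fell (61.3 and 63.1 in P0.5 libraries, against 179 and 138 in E18.5 libraries, -1.32). The count of rises was 5 and 5 without P0.5 replicate 1 and 2 in turn, and 7 and 6 without E18.5 replicate 1 and 2 in turn.

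In fatty acid synthesis 6 of 23 genes fell and 0 rose (median -0.38). Stearoyl-CoA desaturase Scd2, which makes monounsaturated fatty acids, was at 2404 and 2857 in P0.5 libraries, against 8895 and 8456 in E18.5 libraries, a change of -1.73 (SE 0.18) (limma adjusted p = 6.98e-05). Scd1 was at 586 and 496 in P0.5 libraries, against 1855 and 2109 in E18.5 libraries, a change of -1.87 (SE 0.18) (limma adjusted p = 6.06e-05). Fatty acid synthase Fasn was at 115 and 130.4 in P0.5 libraries, against 342 and 349 in E18.5 libraries, a change of -1.49 (SE 0.19) (limma adjusted p = 2.59e-04). None of these groups overlapped, and the desaturase Fads1 (-1.64), the enoyl reductase Tecr (-1.05) and Srebf1 (-1.06), the factor that drives the pathway, fell too. The tandem copies Scd3 (-2.24) and Scd4 (-2.27), which can share tags with Scd1 and Scd2, were among the 15 largest falls. This count was 4 and 4 without P0.5 replicate 1 and 2 in turn, and 4 and 4 without E18.5 replicate 1 and 2 in turn. Acetyl-CoA carboxylase Acaca (0.31) and ATP citrate lyase Acly (-0.52) did not pass (limma adjusted p = 0.401 and 0.0912). In cholesterol synthesis 2 of 25 genes rose (8%) and 1 fell (4%), near the shares over all genes tested (7.24% and 7.09%). In that list 18 changes were below 0 (median -0.25). In fatty acid synthesis 16 of 23 were below 0, and the lists were not tested against each other. Phosphomevalonate kinase Pmvk was at 59.9 and 50.1 in P0.5 libraries, against 7.46 and 9.15 in E18.5 libraries (2.59 (SE 0.26), limma adjusted p = 6.63e-05) and farnesyl diphosphate synthase Fdps at 83.4 and 78.6 in P0.5 libraries, against 23.03 and 32.8 in E18.5 libraries (1.52), while Nsdhl fell (-0.73). Falls numbered 0 to 2 over the alternatives. The sterol response element TCACNCCAC, held by 1.24% of windows, was in 0 of 3 falling fatty acid synthesis genes with a window. Among genes of glycogen metabolism, both synthesis and breakdown, and of glucose synthesis, 3 of 18 fell and 1 rose. The glycogen-targeting phosphatase subunit Ppp1r3b was at 0.367 and 1.41 in P0.5 libraries, against 11.03 and 13.3 in E18.5 libraries (-2.85), the branching enzyme Gbe1 (-2.14) and the phosphorylase Pygl (-1.09) fell, and Fbp1 rose (1.98) at low levels, a call lost with edgeR, with the replicate block and whenever 1 of the 4 libraries was left out.

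**Figure D3:**
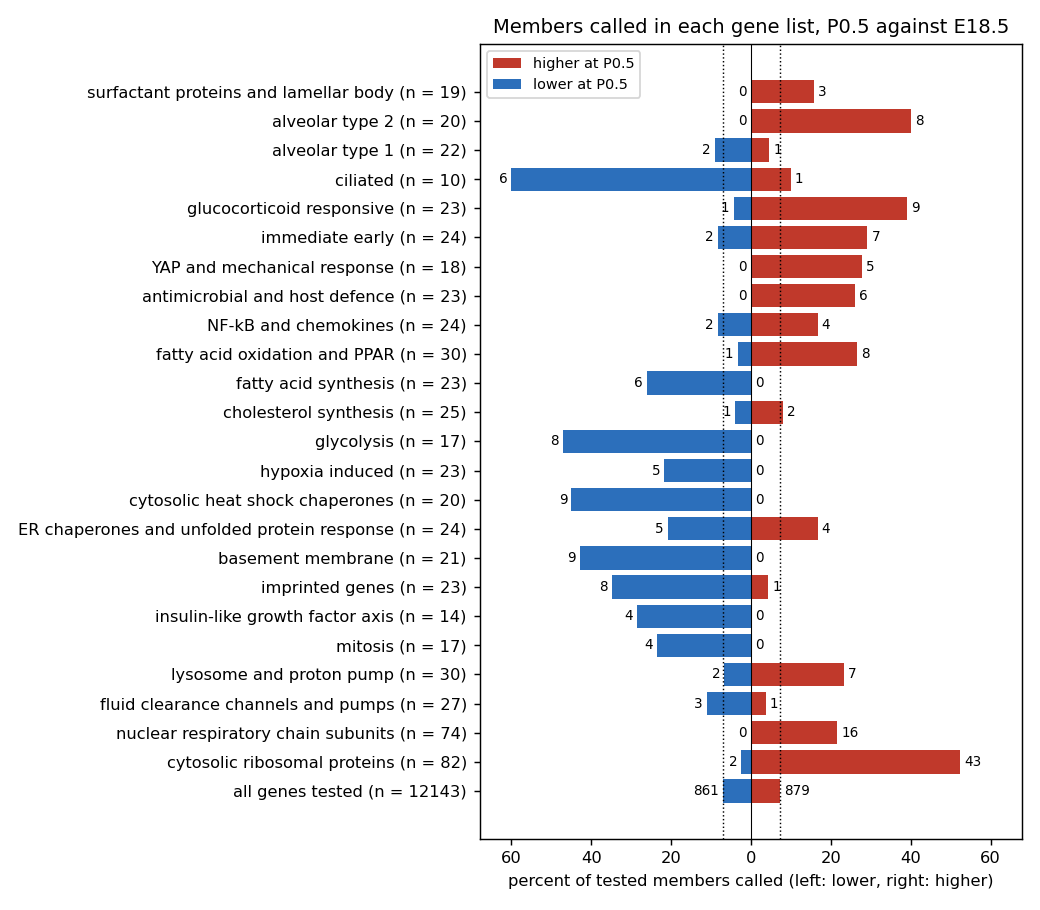
Percent of the tested members of each gene list that passed the limma test, with higher at P0.5 to the right (red) and lower to the left (blue); the numbers beside the bars are counts, and dotted lines mark the shares over all tested genes (7.24% higher, 7.09% lower). Alveolar type 2, glucocorticoid-responsive and ribosomal protein lists reach to the right, and ciliated, glycolysis, heat shock and basement membrane lists to the left.

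Glycolysis genes fell in 8 of 17 and rose in 0 (median -0.80). Phosphoglycerate mutase Pgam1 (chromosome 19, 41911923 to 41918660, plus strand) was at 241 and 303 in P0.5 libraries, against 813 and 884 in E18.5 libraries, a change of -1.65 (SE 0.19) (limma adjusted p = 1.50e-04), and passed under all 15 alternatives. Aldolase Aldoa was at 1362 and 1821 in P0.5 libraries, against 2911 and 3075 in E18.5 libraries, a change of -0.93 (SE 0.22) (limma adjusted p = 0.0121). Lactate dehydrogenase Ldha, which returns pyruvate to lactate, was at 114 and 68.7 in P0.5 libraries, against 151 and 186 in E18.5 libraries (-0.91). Hexokinase Hk2 (-1.06), the phosphofructokinase Pfkp (-1.73), Pgk1 (24.97 and 24.6 in P0.5 libraries, against 49.3 and 48.3 in E18.5 libraries, -0.95), Gapdh (-0.84) and the lactate exporter Slc16a3 (-1.12) fell, and the glucose transporter Slc2a1 (-0.63), Tpi1 (-0.67) and Pkm (-0.08) did not pass. The count was 4 and 2 without P0.5 replicate 1 and 2 in turn, and 5 and 3 without E18.5 replicate 1 and 2 in turn. Of 23 genes known to be induced by hypoxia, 5 fell and 0 rose (median -0.45). They included the oxygen sensors Egln1 (77.8 and 76.9 in P0.5 libraries, against 129 and 124 in E18.5 libraries, -0.70) and Egln3 (-1.88) and Ndrg1 (-0.96), with Ldha and Pgk1 in both lists. This count was 1 and 0 without P0.5 replicate 1 and 2 in turn, and 3 and 1 without E18.5 replicate 1 and 2 in turn. Vegfa (364 and 281 in P0.5 libraries, against 376 and 511 in E18.5 libraries) did not pass, and the oxygen-regulated factor gene Hif1a was at 63.9 and 43.3 in P0.5 libraries, against 50.6 and 68.8 in E18.5 libraries, overlapping.

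Promoters of the falling glycolysis genes are shown because many hold the core of the hypoxia response element, ACGTG. It was searched on both strands and is held by 19.6% of all RefSeq windows. It was found in 7 of 8 falling glycolysis genes and in 5 of 9 that did not pass. Among hypoxia genes with a window, it was found in 4 of 4 that fell and in 11 of 16 that did not pass. As in the other motif searches, a gene counts if any of its windows holds a match, while the percentages are shares of single windows. Capitals mark the matches, and where 2 overlap on opposite strands they form CACGTG. Of the 2 windows that RefSeq gives for Ldha, the first is shown and the other holds no match.
Pgam1 (chr19:41911621-41911920, plus strand): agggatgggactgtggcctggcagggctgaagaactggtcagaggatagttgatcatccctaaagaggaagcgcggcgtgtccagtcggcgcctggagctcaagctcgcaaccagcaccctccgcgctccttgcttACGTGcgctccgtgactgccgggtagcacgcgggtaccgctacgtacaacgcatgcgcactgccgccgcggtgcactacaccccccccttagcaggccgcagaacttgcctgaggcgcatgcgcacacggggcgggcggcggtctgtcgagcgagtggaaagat
Pgk1 (chrX:106186850-106187149, plus strand): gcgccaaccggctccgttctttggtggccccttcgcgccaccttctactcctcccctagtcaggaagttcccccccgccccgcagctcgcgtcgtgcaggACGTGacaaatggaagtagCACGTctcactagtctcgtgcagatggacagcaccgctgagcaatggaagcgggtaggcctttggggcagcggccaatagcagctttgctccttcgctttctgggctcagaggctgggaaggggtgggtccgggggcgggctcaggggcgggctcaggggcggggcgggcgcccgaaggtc
Ldha (chr7:46845554-46845853, plus strand): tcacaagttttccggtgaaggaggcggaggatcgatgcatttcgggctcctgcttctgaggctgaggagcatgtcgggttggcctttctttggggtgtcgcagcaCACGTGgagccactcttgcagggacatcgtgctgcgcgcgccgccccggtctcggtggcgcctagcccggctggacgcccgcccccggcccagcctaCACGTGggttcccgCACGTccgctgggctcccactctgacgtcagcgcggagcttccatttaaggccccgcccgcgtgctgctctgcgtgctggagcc

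Cytosolic heat shock chaperones fell in 9 of 20 and rose in 0 (median -0.61). Hspa1a, the inducible Hsp70, was at 1086 and 744 in P0.5 libraries, against 4937 and 5350.5 in E18.5 libraries, a change of -2.51 (SE 0.33) (limma adjusted p = 3.56e-04). Its near-identical neighbour Hspa1b, whose tags may be shared with it, was at 932 and 778 in P0.5 libraries, against 4212 and 4545 in E18.5 libraries (-2.36). The small chaperone Hspb1 (chromosome 5, 135887919 to 135889563, plus strand) was at 1787 and 1663 in P0.5 libraries, against 5848 and 5622 in E18.5 libraries, a change of -1.73 (SE 0.23) (limma adjusted p = 4.28e-04). These were well separated in all libraries, and Hsph1 (-1.86), Bag3 (-0.85), Dnajb1 (-0.90), Hspa8 (-0.75), Stip1 (-0.87) and Hsp90ab1 (-0.67) also fell. The count was 5 and 4 without P0.5 replicate 1 and 2 in turn, and 5 and 6 without E18.5 replicate 1 and 2 in turn. A heat shock element, searched as GAA, TTC and GAA with 2 bases between each, held by 0.603% of windows on either strand, was found in 1 of 7 falling chaperones with a window, Hsph1, and in 3 of 9 not called.

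Endoplasmic reticulum chaperones, which fold secreted proteins, did not move as a unit: 4 of 24 rose and 5 fell (median 0.10). The Hsp90 of the endoplasmic reticulum, Hsp90b1, was at 1173 and 986 in P0.5 libraries, against 209 and 439.6 in E18.5 libraries, a change of 1.82 (SE 0.34) (limma adjusted p = 0.0032). Its partner Dnajb11 was at 235 and 225 in P0.5 libraries, against 49.95 and 104 in E18.5 libraries (1.66), and Herpud1 (0.78) and Vimp (1.15), both of the degradation pathway, rose. In both Hsp90b1 and Dnajb11, E18.5 replicate 2 lay well above replicate 1, yet below both P0.5 libraries. Sdf2l1, a cofactor of chaperones in the same compartment, was at 9.18 and 13.01 in P0.5 libraries, against 86.9 and 76.7 in E18.5 libraries, a change of -2.79 (SE 0.33) (limma adjusted p = 1.96e-04). The disulfide isomerases Pdia6 (809.7 and 665 in P0.5 libraries, against 1273 and 1196 in E18.5 libraries, -0.75) and Pdia3 (-0.76), the lectin chaperone Calr (-1.10) and the stress factor Xbp1 (-1.14) fell, and the main chaperone Hspa5 was at 1349 and 1474 in P0.5 libraries, against 925 and 1756 in E18.5 libraries, overlapping. Without E18.5 replicate 1 the list had 4 rises and 1 fall, and without P0.5 replicate 2 it had 3 rises and 1 fall. Promoters of a gene that rose and one that fell are set side by side because both hold the ER stress response element, CCAAT and CCACG with 9 bases between (capitals, either strand), which 0.119% of windows hold. It was found in 1 of 3 rising, 2 of 5 falling and 5 of 13 genes not called that have a window.
Hsp90b1 (chr10:86705395-86705694, minus strand): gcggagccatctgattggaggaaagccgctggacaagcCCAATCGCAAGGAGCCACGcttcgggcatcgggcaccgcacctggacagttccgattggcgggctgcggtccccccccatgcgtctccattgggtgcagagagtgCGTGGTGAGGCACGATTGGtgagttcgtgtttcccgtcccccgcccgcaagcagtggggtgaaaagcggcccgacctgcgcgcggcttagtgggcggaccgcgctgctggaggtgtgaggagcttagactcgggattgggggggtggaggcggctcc
Pdia6 (chr12:17266339-17266638, plus strand): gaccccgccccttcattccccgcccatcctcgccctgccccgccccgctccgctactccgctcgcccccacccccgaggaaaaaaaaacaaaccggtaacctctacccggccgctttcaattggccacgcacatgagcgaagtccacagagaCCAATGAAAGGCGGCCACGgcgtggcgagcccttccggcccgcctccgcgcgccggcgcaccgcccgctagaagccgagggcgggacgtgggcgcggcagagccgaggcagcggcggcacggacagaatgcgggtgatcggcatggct
Hsp90b1 has 2 matches and Pdia6 has 1, and their RNA moved in opposite directions. In related stress lists, 1 of 17 ATF4 genes (5.88%) rose (Vldlr, 0.63) and 2 (11.8%) fell, the serine synthesis enzyme Psat1 (27.9 and 22.3 in P0.5 libraries, against 83.04 and 78.6 in E18.5 libraries, -1.65) and Cebpb. Of 16 p53 and growth arrest genes, 1 (6.25%) rose (Btg2) and 2 (12.5%) fell, Phlda3 (-1.59) and Gadd45g, at 1636 and 1255 in P0.5 libraries, against 4469.8 and 4690.3 in E18.5 libraries (-1.68 (SE 0.26)). Of 32 antioxidant genes 3 (9.38%) rose, thioredoxin Txn1 (1.60), superoxide dismutase Sod1 (0.96) and Prdx6, and 2 (6.25%) fell. The shares in these stress lists stand against 7.24% higher and 7.09% lower over all genes tested. The Sod1 call was lost with the trend on transcript length removed, a fit given with the ribosomal proteins. The genes that fell were the glutathione transferases Gstm2 (26.1 and 23.2 in P0.5 libraries, against 94.7 and 81.4 in E18.5 libraries, -1.80) and Gsta4 (-0.61).

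Basement membrane genes fell in 9 of 21 and rose in 0 (median -0.78). The laminin chain Lama5 (chromosome 2, 180176373 to 180225859, minus strand), part of the main laminin under alveolar epithelium, was at 836 and 1138 in P0.5 libraries, against 2411 and 2876 in E18.5 libraries, a change of -1.43 (SE 0.20) (limma adjusted p = 6.38e-04). Lama3 was at 17.3 and 18.7 in P0.5 libraries, against 69.7 and 82.7 in E18.5 libraries, a change of -2.02 (SE 0.25) (limma adjusted p = 2.49e-04). Lamc1 was at 89.2 and 83.7 in P0.5 libraries, against 179 and 184 in E18.5 libraries (-1.06). In each of these genes the groups did not overlap, and the laminin chains Lamb2 (-1.34) and Lamb3 (-0.94), the type IV collagen chains Col4a2 (2759.6 and 2643 in P0.5 libraries, against 3994 and 4230.4 in E18.5 libraries, -0.61) and Col4a5 (-1.32) and nidogen Nid2 (-2.13) fell too. The count was 4 and 4 without P0.5 replicate 1 and 2 in turn, and 5 and 5 without E18.5 replicate 1 and 2 in turn. Endothelial cells also make basement membrane, and of 4 tested endothelial genes Kdr (4.77 and 5.09 in P0.5 libraries, against 45.4 and 23.4 in E18.5 libraries) and Tie1 (-1.998) fell, with summed endothelial levels of 147 and 139 in P0.5 libraries and 207 and 216 in E18.5 libraries. Of 12 fibroblast genes Col3a1 fell (-1.14) and 0 rose. The part of either cell type in these falls was not tested.

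The imprinted RNA H19 fell the most. It was the only imprinted gene among the 15 largest falls, a ranking limited to genes whose higher group averaged at least 50. Of 23 imprinted genes 8 fell and 1 rose (median -0.47). The noncoding RNA H19 (chromosome 7, 142575529 to 142578143, minus strand), expressed from the maternal allele in fetal tissues, was at 10.6 and 7.35 in P0.5 libraries, against 204 and 184 in E18.5 libraries, a change of -4.30 (SE 0.54) (limma adjusted p = 2.59e-04). Rian, a noncoding RNA of the Dlk1 and Meg3 cluster, was at 971 and 794 in P0.5 libraries, against 2815 and 2700.4 in E18.5 libraries (-1.65 (SE 0.17), limma adjusted p = 6.82e-05). Ascl2 was at 1.102 and 0.848 in P0.5 libraries, against 14.6 and 19.6 in E18.5 libraries, at or near the limit of a count of 0 at P0.5. Cdkn1c, Kcnq1ot1 (-1.07), Mirg (-1.52), Peg12 (-1.49) and Igf2 (16.5 and 16.1 in P0.5 libraries, against 55.5 and 41.7 in E18.5 libraries, -1.50) fell as well, Peg10 rose (1.32), and Meg3 (-0.47) and Mest (-0.91) did not pass. The count of falls was 5 and 5 without P0.5 replicate 1 and 2 in turn, and 5 and 6 without E18.5 replicate 1 and 2 in turn. In the insulin-like growth factor list 4 of 14 genes fell and 0 rose (median -0.68). The binding protein Igfbp6 was at 2524 and 2503 in P0.5 libraries, against 4526 and 5016 in E18.5 libraries (-0.92 (SE 0.17), limma adjusted p = 0.00285), and Igfbp5 (-1.47) and Igfbp7 (-0.94) fell, while the receptor Igf1r (-0.45) did not pass. Falls in this list numbered 1 and 2 without P0.5 replicate 1 and 2 in turn, and 2 and 2 without E18.5 replicate 1 and 2 in turn. Of 9 fetal heterochronic genes, which mark early developmental time, 1 (11.1%) fell (Mycn). Mitosis genes fell in 4 of 17 (median -0.59), namely Kif11 (-2.50), Tpx2 (-2.22), Nusap1 (2.203 and 2.83 in P0.5 libraries, against 20.8 and 9.78 in E18.5 libraries) and Hmmr (-1.63), all at low levels and with 0 and 0 without P0.5 replicate 1 and 2 in turn, and 2 and 2 without E18.5 replicate 1 and 2 in turn. The proliferation marker Mki67 was at 4.04 and 4.24 in P0.5 libraries, against 1.95 and 4.73 in E18.5 libraries, overlapping. DNA replication genes rose in 1 (Cdc6, 1.60) and fell in 2 (Pola1, -1.82, and Tyms, -1.54) of 20. These were 5% and 10%, against 7.24% and 7.09% of all genes tested.

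Among epithelial ligands, 2 of 22 rose (9.09%) and 1 fell (4.55%), near the shares over all genes tested (7.24% and 7.09%). Fstl1 (chromosome 16, 37776873 to 37836514, plus strand), a secreted follistatin-like glycoprotein, fell to 1389 and 1324 in P0.5 libraries, against 8516 and 7966 in E18.5 libraries, with close replicates in both groups (-2.60 (SE 0.18), limma adjusted p = 1.02e-05). The EGF receptor ligands Areg (15.4 and 10.7 in P0.5 libraries, against 4.87 and 1.58 in E18.5 libraries, 1.84) and Hbegf (263 and 239 in P0.5 libraries, against 98.9 and 161 in E18.5 libraries, 0.99) rose, and of 18 feedback genes of receptor tyrosine kinases, Errfi1 and Etv5 rose and 0 fell. Of 20 Wnt, Notch and BMP target genes, 1 (5%) fell, the BMP inhibitor Smad6 (141 and 157 in P0.5 libraries, against 248 and 267 in E18.5 libraries, -0.78), and 0 rose. Gipr, the receptor of a gut hormone, was at 17.6 and 25.2 in P0.5 libraries, against 175 and 193 in E18.5 libraries, a change of -3.07 (SE 0.26) (limma adjusted p = 4.36e-05). The urea cycle enzyme Ass1, which also supplies arginine for nitric oxide, was at 875 and 872 in P0.5 libraries, against 3138 and 3438 in E18.5 libraries, a change of -1.91 (SE 0.17) (limma adjusted p = 4.68e-05). Arginase Arg2 (11.02 and 10.7 in P0.5 libraries, against 0.973 and 2.52 in E18.5 libraries, 2.17), the polyamine acetylase Sat1 (1.04) and Azin1 (0.79) rose, so that the arginine and polyamine list had 3 rises and 1 fall in 15 genes. Other large falls were in the pancreatic-type elastase Cela1 (51.04 and 58.8 in P0.5 libraries, against 307 and 305 in E18.5 libraries), the deubiquitinase Otub1 (-2.11), the dolichol phosphatase Dolpp1 (108 and 143 in P0.5 libraries, against 527 and 534 in E18.5 libraries) and the 28S ribosomal RNA entry Rn28s1 (-2.08), which is not a polyadenylated messenger.

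Antimicrobial genes rose in 6 and fell in 0 of 23 (median 0.26). Lyz1 (chromosome 10, 117287797 to 117292868, minus strand), which digests bacterial cell walls, was at 1599 and 1591 in P0.5 libraries, against 716 and 705 in E18.5 libraries, a change of 1.16 (SE 0.17) (limma adjusted p = 8.98e-04). Lipocalin 2 (Lcn2), which withholds iron from bacteria, was at 32.3 and 31.7 in P0.5 libraries, against 10.4 and 14.8 in E18.5 libraries (1.30 (SE 0.26), limma adjusted p = 0.00537). Besides Lyz2 and Sftpd, the chitinase Chia1 (1.02) and the protease inhibitor Slpi (1.61) rose. The count was 4 and 4 without P0.5 replicate 1 and 2 in turn, and 5 and 6 without E18.5 replicate 1 and 2 in turn. Of 24 NF-κB and chemokine genes 4 rose and 2 fell. The neutrophil chemokine Cxcl2 (chromosome 5, 90903871 to 90905938, plus strand) was at 339 and 376 in P0.5 libraries, against 27.9 and 59.3 in E18.5 libraries, a change of 3.10 (SE 0.48) (limma adjusted p = 0.00111). Its neighbour Cxcl3, outside this list but among the 15 largest rises, was at 386 and 335 in P0.5 libraries, against 32.8 and 58.1 in E18.5 libraries (3.01 (SE 0.45), limma adjusted p = 9.28e-04). E18.5 replicate 2 lay above replicate 1 in both, yet far below both P0.5 libraries. Ccl20, which draws dendritic cells and lymphocytes, was at 4.41 and 5.66 in P0.5 libraries, against 0 and 0 in E18.5 libraries, with no read at E18.5. Nfkbia (79.7 and 72.4 in P0.5 libraries, against 43.1 and 36.6 in E18.5 libraries) and Birc3 (1.49), both induced by NF-κB, rose, while Relb (-1.49) and Csf1 (-1.19) fell at low levels, calls lost with edgeR and DESeq2. The falls in this list were 0 and 1 without P0.5 replicate 1 and 2 in turn, and 0 and 0 without E18.5 replicate 1 and 2 in turn. The related chemokine Cxcl1 was at 4.04 and 7.92 in P0.5 libraries, against 6.16 and 1.89 in E18.5 libraries, overlapping, and the type 2 cell chemokine Cxcl15 at 823 and 933 in P0.5 libraries, against 838 and 634 in E18.5 libraries did not pass.

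Leukocyte genes beside these results moved both ways. The complement gene C1qa fell (12.5 and 10.5 in P0.5 libraries, against 67.5 and 184 in E18.5 libraries, -3.18 (SE 0.96), limma adjusted p = 0.0396), with an uneven pair at E18.5, and Cd68 fell (-2.30), while Csf1r rose (12.1 and 13.3 in P0.5 libraries, against 4.22 and 3.16 in E18.5 libraries) with Lyz2, which type 2 cells also express. The C1qa call was lost when any 1 of the 4 libraries was left out. The neutrophil gene Camp was at 39.7 and 49.2 in P0.5 libraries, against 8.76 and 0 in E18.5 libraries and did not pass (limma adjusted p = 0.0954), nor did S100a9 (2.94 and 6.79 in P0.5 libraries, against 0 and 0.316 in E18.5 libraries). All 7 tested red cell genes lay higher in both P0.5 libraries than in both E18.5 libraries (median 1.70), as did 28.7% of all tested genes. Of the red cell genes 1 passed, and the haemoglobin gene Hbb-bs, one of several near-identical copies, was at 1758 and 2817 in P0.5 libraries, against 359.7 and 1306 in E18.5 libraries. The median transcript length of this list was 699 nucleotides, and its median change was 1.225 with the trend on transcript length removed, a fit given with the ribosomal proteins. The number of red cell genes that passed was 0 and 0 without P0.5 replicate 1 and 2 in turn, and 1 and 3 without E18.5 replicate 1 and 2 in turn, and 5 with the replicate block. The part of these cell types in the changes of host defence genes was not tested. MHC class II genes fell in 1 of 8 (H2-Eb1, 145 and 160.1 in P0.5 libraries, against 205 and 329 in E18.5 libraries), MHC class I genes in 2 of 13 (Psmb8, 82.6 and 65.9 in P0.5 libraries, against 156 and 158 in E18.5 libraries, -1.08, and Tap2, -1.04), and interferon-stimulated genes rose in 1 (Ifit3, 1.14) and fell in 1 (Stat2, -0.75) of 17. These falls were 12.5%, 15.4% and 5.88%, against 7.09% of all genes tested, and the interferon rise was 5.88%, against 7.24%.

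Lysosome and proton pump genes rose in 7 and fell in 2 of 30 (median 0.04). Rises in this list numbered 5 and 4 without P0.5 replicate 1 and 2 in turn, and 5 and 6 without E18.5 replicate 1 and 2 in turn, and falls 1 and 0 without P0.5 replicate 1 and 2 in turn, and 1 and 1 without E18.5 replicate 1 and 2 in turn. Cathepsin C (Ctsc) was at 226 and 204 in P0.5 libraries, against 67.8 and 91.8 in E18.5 libraries, a change of 1.43 (SE 0.20) (limma adjusted p = 5.39e-04). The cholesterol exporters of the lysosome, Npc1 (54.7 and 57.1 in P0.5 libraries, against 16.5 and 23.4 in E18.5 libraries, 1.46) and Npc2 (928 and 1527 in P0.5 libraries, against 391.8 and 469.6 in E18.5 libraries, 1.47), rose together. The tetraspanin Cd63 (0.81) and the proton pump subunits Atp6v1e1 (1.68), Atp6v0e (1.02) and Atp6v0a1 (0.96) rose, and the hydrolase Hexa (-1.34) fell. Autophagy and starvation genes rose in 5 and fell in 1 of 20 (median 0.32). The ubiquitin ligase Fbxo32 was at 29.01 and 22.6 in P0.5 libraries, against 5.19 and 8.52 in E18.5 libraries (1.79 (SE 0.33), limma adjusted p = 0.00321), and Atg14 (1.83), Atg12 (1.001), the cargo receptor Sqstm1 (74.9 and 83.1 in P0.5 libraries, against 47.4 and 44.5 in E18.5 libraries, 0.77) and Gabarapl2 (0.91) rose. The gene listed as 8430408G22Rik, now Depp1, fell (-1.46). This count of rises was 0 and 1 without P0.5 replicate 1 and 2 in turn, and 2 and 3 without E18.5 replicate 1 and 2 in turn.

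Ribosomal protein genes held most of the largest rises, but so did short transcripts in general. Of 82 ribosomal protein genes 43 rose and 2 fell (median 0.88). Rps28 (387 nucleotides) was at 507 and 609 in P0.5 libraries, against 19.1 and 28.4 in E18.5 libraries, a change of 4.52 (SE 0.33) (limma adjusted p = 1.02e-05). Rpl38 (367.5 nucleotides) was at 14365 and 12728 in P0.5 libraries, against 615 and 1397 in E18.5 libraries, a change of 3.87 (SE 0.39) (limma adjusted p = 6.82e-05). Rpl37a (558 nucleotides) was at 48250.0 and 36084 in P0.5 libraries, against 3366 and 7668 in E18.5 libraries, a change of 3.04 (SE 0.39) (limma adjusted p = 2.86e-04). In each, E18.5 replicate 1 was the lowest library and E18.5 replicate 2 also lay below both P0.5 libraries. Rplp2 (4.35), Rps29 (3.87), Rps27rt (3.48), Rplp1 (3.46), Rps27 (3.29) and Rpl37 (3.02) were also among the 15 largest rises, with the mitochondrial import subunit Tomm7 (3.68) and Wdr89 (3.63). Ribosomal protein genes have many processed copies that can share tags, so single members are uncertain. The members that fell were long by comparison, Rps6 (878 nucleotides, -0.60) and the laminin-binding Rpsa (1768.5 nucleotides, -0.69). The count of rises was 29 and 23 without P0.5 replicate 1 and 2 in turn, and 23 and 44 without E18.5 replicate 1 and 2 in turn.

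Transcript length moved with these rises, both between the stages and between the E18.5 libraries. Among 274 genes with transcripts of 600 nucleotides or fewer, 99 (36.1%) rose and 10 fell, with a median of 0.72, against 695 (6.51%) and 769 of 10678 longer genes with a median of -0.03. The short genes took 9.496% and 8.86% of the summed value in P0.5 libraries, against 2.29% and 3.58% in E18.5 libraries. Between the replicates, the median difference of short genes was 0.00 at P0.5 and 0.64 at E18.5 (replicate 2 minus replicate 1, log2). Ribosomal protein genes of 600 nucleotides or fewer rose in 19 of 22 (median 2.29), and the longer ones rose in 23 and fell in 2 of 59 (median 0.46). With the trend on length removed, an alternative chosen after seeing the data, 36 ribosomal protein genes rose and 3 fell. The part of length in these rises was not tested further.

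**Figure D4:**
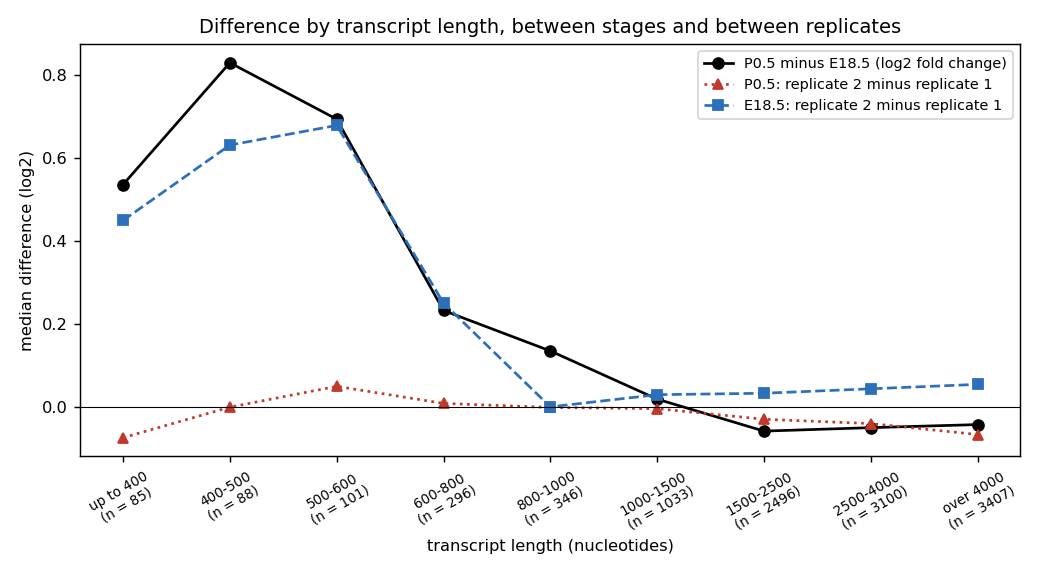
Median log2 difference by transcript length (nucleotides) for P0.5 minus E18.5 (black), for replicate 2 minus replicate 1 at P0.5 (red) and for replicate 2 minus replicate 1 at E18.5 (blue); n is the number of genes. The black and blue lines are raised for transcripts of up to 800 nucleotides, and the red line stays near 0.

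Nuclear genes of the respiratory chain rose in 16 of 74 and fell in 0 (median 0.53), 11 of 19 at 600 nucleotides or fewer (median 1.52) and 5 of 54 above (median 0.23). Their number of rises was 12 and 8 without P0.5 replicate 1 and 2 in turn, and 11 and 23 without E18.5 replicate 1 and 2 in turn. The complex I subunit Ndufa3 (515 nucleotides) was at 2111 and 2618 in P0.5 libraries, against 206 and 347 in E18.5 libraries, a change of 3.13 (SE 0.36) (limma adjusted p = 1.50e-04). The Rieske protein Uqcrfs1 of complex III, with a transcript of 1363 nucleotides, was at 109 and 97.00 in P0.5 libraries, against 34.1 and 32.2 in E18.5 libraries (1.61 (SE 0.21), limma adjusted p = 3.12e-04). Atp5k (3.35), Cox6c (2.03), Uqcr10 (1.996) and Cox8a (1.58) rose as well. With the length trend removed, 13 respiratory chain genes rose and 2 fell. Host genes of small nucleolar RNAs rose in 5 of 9 and fell in 0 (median 1.78), namely Snhg8 (48.1 and 58.5 in P0.5 libraries, against 3.89 and 4.103 in E18.5 libraries, 3.44 (SE 0.36)), Snhg3 (6.24 and 9.33 in P0.5 libraries, against 0 and 0.316 in E18.5 libraries), Snhg6 (2.49), Snhg1 (1.82) and Gas5 (1.78), with Snhg3 at or below the limit of a count of 0 at E18.5, and 6 rose with the length trend removed. Histone cluster genes rose in 6 and fell in 0 of 26 (median -0.16), with Hist1h2al at 275 and 217 in P0.5 libraries, against 73.6 and 118 in E18.5 libraries (1.38) and the others sharing near-identical copies. Of 17 histone genes of 600 nucleotides or fewer 5 rose, with a median of -0.0015, where all short genes had 0.72, and 1 of 9 longer ones rose (median -0.25). After removal of the length trend 5 histone genes rose and 4 fell, and the rises before that removal were 2 and 4 without P0.5 replicate 1 and 2 in turn, and 4 and 5 without E18.5 replicate 1 and 2 in turn. The list of translation factors and other genes with the 5′ terminal oligopyrimidine tract of ribosomal protein genes has longer transcripts. In it 2 of 20 genes (10%) rose and 1 (5%) fell (median 0.05), against 7.24% and 7.09% of all genes tested. The translation factor Eef1b2 was at 93.3 and 79.5 in P0.5 libraries, against 36.7 and 33.1 in E18.5 libraries (1.28). The RNA-binding protein Hnrnpa1 rose (1.23), and the translation factor Eef1d fell to 262 and 227 in P0.5 libraries, against 472 and 478 in E18.5 libraries (-0.96).

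**Figure D5:**
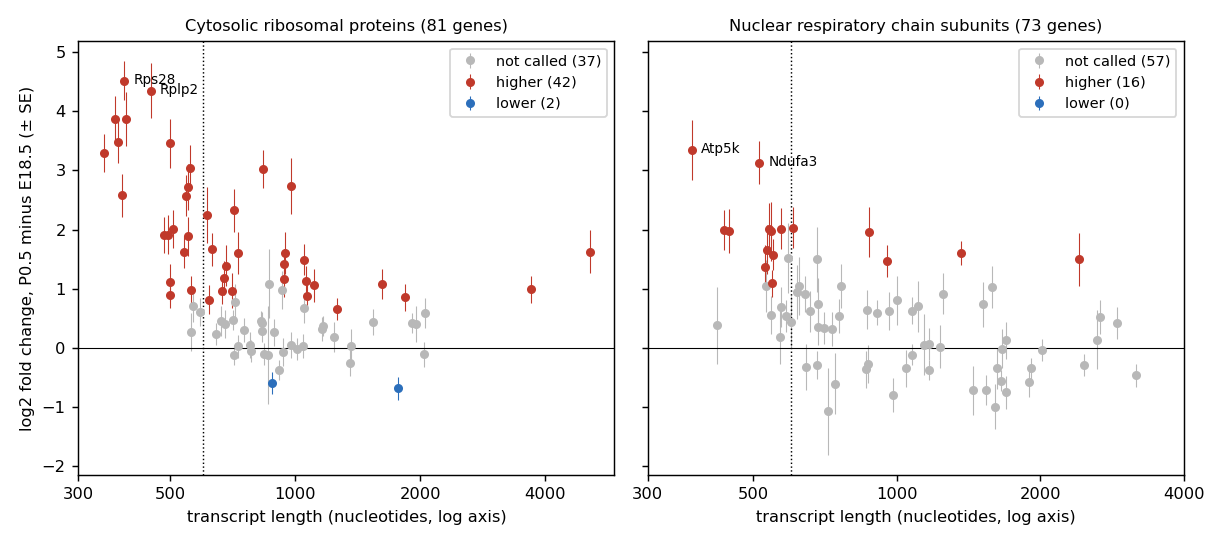
Log2 fold change of P0.5 over E18.5 (± SE from limma) against transcript length (nucleotides, log axis) for 81 ribosomal protein genes (left) and 73 nuclear respiratory chain genes (right) with a known length. Points are red where higher, blue where lower and grey where not called; the dotted line at 600 nucleotides separates 19 of 22 risen ribosomal protein genes from 23 of 59, and 11 of 19 respiratory chain genes from 5 of 54.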

How the data were processed

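Per the labels' protocols, polyadenylated RNA of sorted cells was amplified, made into 3'SAGE-seq libraries and sequenced on an Ion Proton. The deposited signal is 1 value per gene and library. Bowtie2 2.2.5, R 3.4.0 and mm10 are named per the submitters' processing notes, and the tag enzyme, annotation and normalisation are not given in the sources used here. In each library, 100% of deposited values were whole multiples of 1 constant (tolerance 0.01 of a read), which gave whole reads. Amplified reads without molecular identifiers are not independent molecules, so limits from 3 reads cover counting error only. Replicates differed by more than sampling noise (chi-square per degree of freedom 7.51 at P0.5 and 7.67 at E18.5).

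Genes that reached a value of 3 in at least 2 of the 10 epithelial libraries were tested on log2(value + 1) in limma 3.58.1 (R 4.3.3), allowing the variance to follow the mean, with 1 mean per stage and 5 residual degrees of freedom. The P2, P7 and P28 libraries served only to estimate the spread. Adjusted p-values are two-sided, by Benjamini-Hochberg over all genes tested, with a threshold of 0.05. edgeR 4.0.16 and DESeq2 1.42.0 on recovered reads were alternatives. The limma step was tested on simulated data.

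The members, gene lists, tests and alternatives were chosen with earlier results of these data known, and no list was tested as a set. Lists are described by counts and medians. Named genes are the sort genes, the 15 largest rises and 15 largest falls whose higher group averaged at least 50, without predicted genes, up to 6 called members of each list with the smallest p, the leading markers of cells sorted against, and members that pathway knowledge singles out, which were chosen after their values were seen. Gene coordinates and transcript lengths are from GENCODE M21 (GRCm38), with a length for 10952 of 12143 genes. Of the 23869 listed symbols, 18125 were found there. Mt1 was not analysed here. Some genes counted in the lists are not reported here by name. The fibroblast libraries, normalised separately, were not used here.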

Additional observations from a re-analysis of the deposited data

How the results depend on the processing

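With 2 libraries per group, single genes rest on few samples. Of 1740 calls (879 higher, 861 lower), no alternative gave a call in the opposite direction. Fitting the 4 libraries only left 990 calls, 475 higher and 515 lower. Leaving out 1 library at a time left 589 to 1105 calls, 323 to 711 higher and 250 to 442 lower, and without E18.5 replicate 2 the share of higher genes among the calls was 64.3%, against 50.5% with all libraries. The counts stayed within 1.5 times of 1740 with edgeR (1794), DESeq2 (1557), pseudocounts of 0.5 (1709) and 5 (1845), no filter (1308), a filter at 10 (1677), scaling to equal sums (1818), TMM scaling (1841) and removal of the length trend (1677, of which 1487 were shared with the 1740), the last chosen after seeing the data. These scalings moved the median change of all genes by less than 0.1. Among called genes considered for naming, edgeR lost the calls of Angptl4, Csf1, Dsp, Fbp1, Hmmr, Nid2, Phlda3, Relb and Tie1. With DESeq2 19 were lost, among them Angptl4, Aqp4, Bhlhe41, C1qa, Csf1, Dnah9, Epas1, Gabarapl2, Kdr, Mirg, Peg12, Relb, Sgk1, Slc39a10, Srebf1, Tyms and Zfp36. Of 279 called genes considered for naming, 111 kept their call in every alternative that tested them. Without P0.5 replicate 1 or 2, 128 and 141 of them lost it, and without E18.5 replicate 1 or 2, 118 and 83 lost it, which in these fits comes with fewer samples.

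The labels do not say whether same-numbered libraries were paired, for example by litter or batch, and this was not tested further. Over all tested genes, deviations of same-numbered P0.5 and E18.5 libraries from their group means correlated at -0.02. The correlation ran from -0.06 to 0.07 over all pairs of epithelial stages. Such a correlation over all genes can miss an effect shared by few genes. A replicate block gave 1797 calls, 911 higher and 886 lower.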
